A study of Homo sapiens with 171 samples.

Results

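The HOX cluster genes encode homeodomain transcription factors that lie side by side in chromosomal clusters. They were taken as the genes whose probe sets carry a single symbol of the form HOXA, HOXB, HOXC or HOXD followed by a number. The rule found 27 genes of 18417 measured: HOXA2 (1 of 11 HOXA genes in the RefSeq gene table, chromosome 7), HOXB1 to HOXB9 and HOXB13 (10 of 10, chromosome 17), HOXC5 and HOXC8 to HOXC13 (7 of 9, chromosome 12) and HOXD1, HOXD3, HOXD4 and HOXD8 to HOXD13 (9 of 9, chromosome 2). Each was read by 1 probe set, so every member is accounted for without a filter on low values. The other HOXA genes were not analysed here, and HOXC4 and HOXC6 share a probe set with both symbols that stands outside the rule.

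The study profiled 46 established cell lines of ovarian cancer, with and without cisplatin, on Affymetrix gene arrays. Cisplatin is a platinum drug that forms crosslinks on DNA; treated cultures received it for 48 h at the dose that inhibits growth of each line to the GI50 level, so doses differed between lines and were not analysed here. There were 82 treated and 85 untreated cultures in 5 batches after 4 repeat arrays were averaged with their culture. The 18 lines of batches 1 to 3 had 3 cultures per arm (2 for treated HeyA8), and 28 lines of batches 4 and 5 had 1 culture per arm and batch. PA-1, OVCA433 and SKOV-3 each had a further untreated culture in another batch, which for OVCA433 had a treated partner. All are grown lines rather than tumours, and several share a name and may share an origin: HeyA8, HeyC2 and Hey, DOV13, DOV13A and DOV13B, A2780 and A2780cisR, and, as background knowledge, A2008 and C13. PA-1 is known as a teratocarcinoma line. No label says whether the numbered cultures were grown separately, so the p-values rest on a spread between cultures that may be technical.

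In the embryo, HOX genes are switched on in the order in which they lie along a cluster. Low-numbered (anterior) genes are used towards the head and high-numbered (posterior) genes towards the tail, and the proteins bind DNA with TALE cofactors of the PBX and MEIS families. In the reproductive tract, HOXA9, HOXA10, HOXA11 and HOXA13 are known for the regional identity of oviduct, uterus and cervix, and cancers often keep or gain a HOX pattern of their own. Chromatin repression by Polycomb proteins and activation by Trithorax proteins maintain these patterns, and retinoic acid and CDX factors set them up. MicroRNA genes lie between the HOX genes and are transcribed from the same clusters.

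The values are log2 intensities, so a difference of 1 is a factor of 2. The arrays of batches 1 to 3 had upper quartiles of 7.82 to 8.08, and those of batches 4 and 5 had 5.80 to 6.59, so levels were compared only within a batch. The deposited table has no detection calls, so a low value is not read as absence, and the levels of different genes were not compared. The number of arrays limits the precision. The mean of the epithelial markers differed between untreated lines by -2.65 to 4.17 around the batch median, that of the Muellerian markers by -1.02 to 2.16 and that of the leukocyte markers by -0.46 to 1.44. The genes of HOXB3 and HOXB4, HOXD3 and HOXD4, and HOXC5 with its neighbours have overlapping transcripts, so their separate values are uncertain.

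Of the genes other than HOX genes, MIR10A had the highest r with HOXB2 over all 46 lines, though not within batches 1 to 3 or within batches 4 and 5 alone, and MIR196A1 lies in the same cluster. For orientation, the mature products of these microRNA genes are given from RefSeq (GRCh38.p14), with the seed, bases 2 to 8, in capitals. The miR-10a hairpin lies between HOXB4 and HOXB5, within the annotated span of HOXB3, at chr17:48579904-48579926 (mature part, reverse strand). The miR-196a copy of the HOXB cluster lies at chr17:48632532-48632553 on the reverse strand. The HOXC cluster has a copy, MIR196A2, with the same mature sequence at chr12:53991762-53991783 on the forward strand.
hsa-miR-10a-5p: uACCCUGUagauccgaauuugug
hsa-miR-196a-5p: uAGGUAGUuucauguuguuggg
The seeds of these microRNAs differ, and the array probe sets read the gene region rather than the mature product.

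HOXD10 and HOXD11 had the highest correlation of the HOXD pairs, so their promoter windows are shown, 250 bases before to 50 bases after the RefSeq start, both on the forward strand of chromosome 2 (GRCh38.p14). HOXD10 spans chr2:176116528-176116827 and HOXD11 spans chr2:176107030-176107329. Capitals mark matches on either strand to the CCAAT box (CCAAT), the TATA box (TATAAA) or a PBX-HOX composite site (TGATNNAT).
HOXD10: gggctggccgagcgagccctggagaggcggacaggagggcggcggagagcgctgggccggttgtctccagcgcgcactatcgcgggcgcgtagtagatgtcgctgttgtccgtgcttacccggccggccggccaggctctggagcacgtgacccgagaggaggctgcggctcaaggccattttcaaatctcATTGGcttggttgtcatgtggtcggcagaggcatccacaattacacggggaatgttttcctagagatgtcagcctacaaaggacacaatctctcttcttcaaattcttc
HOXD11: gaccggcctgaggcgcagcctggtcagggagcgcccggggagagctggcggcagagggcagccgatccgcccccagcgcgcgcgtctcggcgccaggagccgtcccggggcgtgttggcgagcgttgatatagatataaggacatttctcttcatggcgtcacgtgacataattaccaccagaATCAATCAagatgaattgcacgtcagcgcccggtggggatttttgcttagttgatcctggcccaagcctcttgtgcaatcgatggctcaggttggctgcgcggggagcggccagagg
The HOXD10 window held 1 CCAAT match, read on the reverse strand, and the HOXD11 window held 1 TGATNNAT match, also on the reverse strand. The windows had 60% and 62.3% G and C and 23 and 27 CpG dinucleotides, against medians of 58.7% and 14 over 35116 promoter windows. CCAAT stood in 34.6% of all windows, TATAAA in 11.5% and TGATNNAT in 7.4%. Of the 11 members with a window in the table, 9 held CCAAT, 1 held TATAAA and 3 held TGATNNAT, and no CCAAT match overlapped a TGATNNAT match. These matches describe the letters only, and no test links these sequences to the expression pattern.

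Untreated lines differed widely in the values of many HOX genes, and the patterns differed between clusters and within them. HOXB2 to HOXB9 were high or low together, and HOXD10 and HOXD11 were high in a few lines, mostly the same ones. The HOXC genes from HOXC8 to HOXC13 were high in a few lines, but unevenly. HOXC10 lay at least 4-fold above the lowest line of its batch in 21 of 49 line and batch values, HOXC12 in 1. Within batches 1 to 3, HOXB1, HOXD12 and HOXD1 varied least, with SDs between lines of 0.16, 0.19 and 0.21 on the log2 scale. Within batches 4 and 5, HOXD4 varied least, at 0.21, followed by HOXB1 at 0.23. The question is which line has high values in which part of a cluster. In the limma F test of line differences within batches 1 to 3, 25 of 27 members passed an adjusted p of 0.05, against 86.8% of all genes, so the count itself is near the background. HOXB1 (adjusted p = 0.307) and HOXD12 (adjusted p = 0.099), the most anterior HOXB gene and a posterior HOXD gene, did not pass. The size of the differences stood further from the other genes. The standard deviation (SD) between untreated lines within batches 1 to 3 had a median of 0.77 over the members and 0.38 over all genes, and 7 of 27 members lay above the 90th percentile of all genes. In batches 4 and 5 the medians were 0.56 and 0.39.

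**Figure D1:**
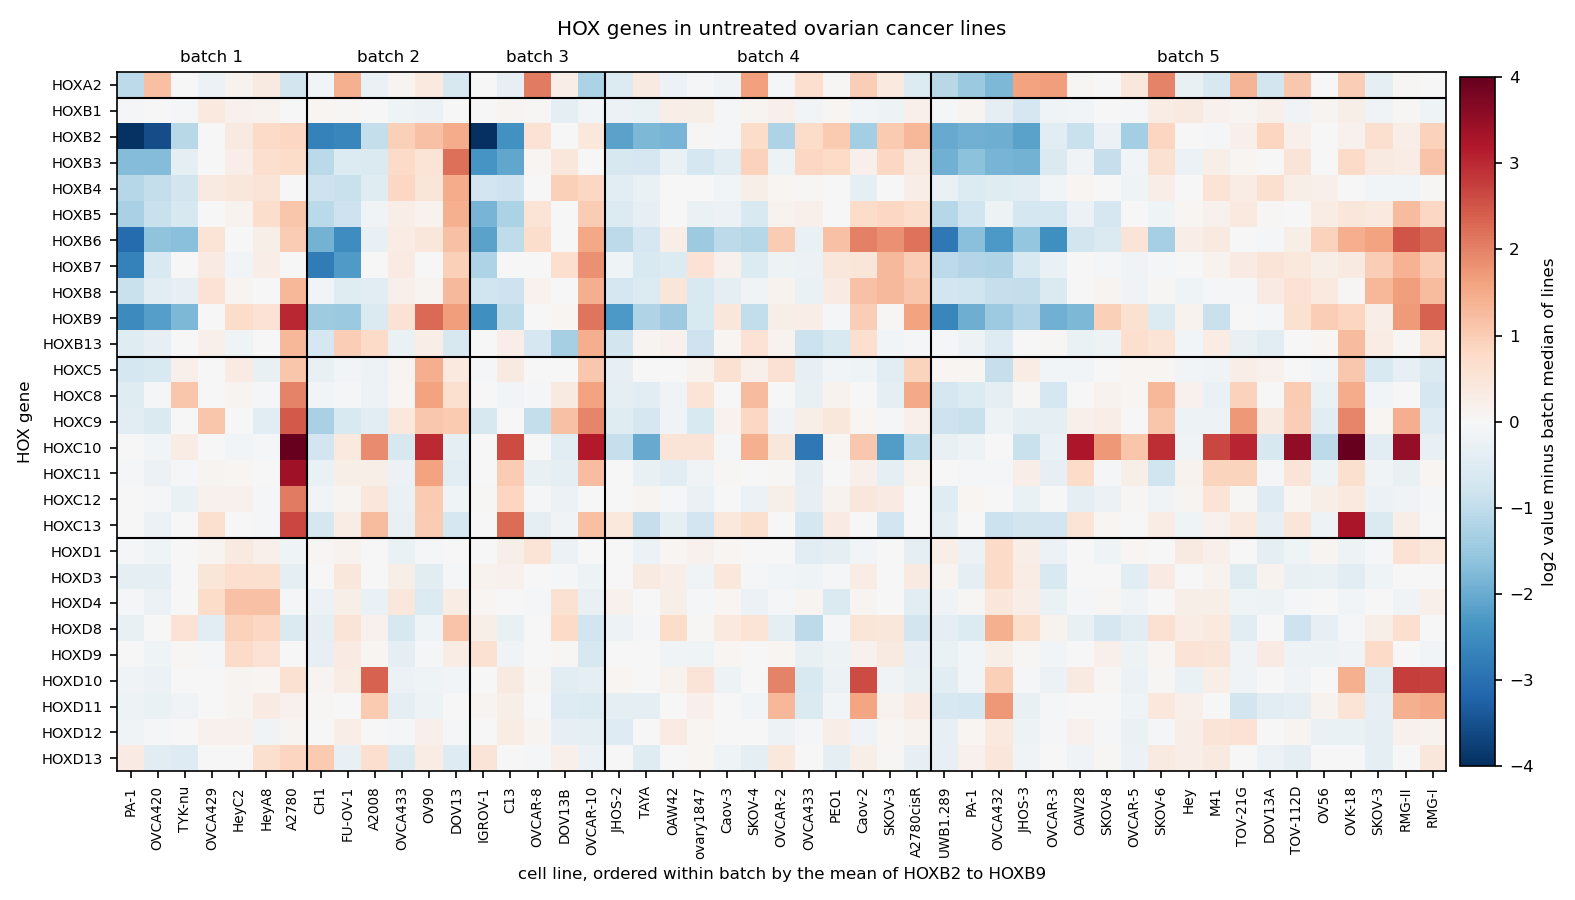
Untreated log2 value of each HOX gene (rows, by cluster) minus the median of the lines of its batch (colour), for 49 line and batch columns; lines are ordered within a batch by the mean of HOXB2 to HOXB9. HOXB2 to HOXB9 run from low to high as a band, HOXC10 is high in separate lines such as A2780 and OVK-18, and HOXB1 and HOXD12 stay near white.

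HOXB2, an anterior gene with a known role in hindbrain patterning, had the widest spread of the members within batches 1 to 3, with an SD of 1.99 between lines. Within batches 4 and 5 its SD was 1.15, below those of HOXC10 (1.70), HOXB6 (1.49) and HOXB9 (1.27). In batch 1 its untreated mean was 9.96 in A2780, 9.89 in HeyA8, 9.49 in HeyC2, 9.12 in OVCA429, 8.02 in TYK-nu, 5.56 in OVCA420 and 5.16 in PA-1. The lowest lines, OVCA420 and PA-1, overlapped in their cultures, whereas TYK-nu lay more than 2 log2 units above both. In batch 2 it was 9.92 in DOV13, 9.63 in OV90, 9.41 in OVCA433, 7.49 in A2008, 5.83 in FU-OV-1 and 5.76 in CH1. In batch 3 it was 10.15 in OVCAR-8, 9.97 in OVCAR-10, 9.56 in DOV13B, 7.14 in C13 and 5.53 in IGROV-1. The cultures of FU-OV-1 and CH1 overlapped, and in each of batches 1 to 3 most lines were either near the top or near the bottom. TYK-nu, A2008 and C13 lay between, and A2008 also varied between its untreated cultures, which read 6.84, 7.29 and 8.35. The lines of batch 5 were more graded. Measured from the batch mean, SKOV-8 (0.08) and OVCAR-3 (-0.12) lay between RMG-I (1.23) and JHOS-3 (-1.82).

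HOXB9, the most posterior gene of the continuous HOXB block, known in skeletal and mammary patterning, had an SD of 1.79. Its untreated means in batch 1 ran from 5.71 in PA-1 and 6.06 in OVCA420 to 8.84 in HeyA8 and 11.28 in A2780. The extremes of batch 2 were FU-OV-1 at 5.95 and OV90 at 9.71, and those of batch 3 were IGROV-1 at 6.18 and OVCAR-10 at 10.76. HOXB6, from the middle of the block, had an SD of 1.45, with 4.88 in PA-1 and 8.96 in A2780 in batch 1, 4.96 in FU-OV-1 and 8.62 in DOV13 in batch 2, and 5.84 in IGROV-1 and 9.52 in OVCAR-10 in batch 3. PA-1, FU-OV-1 and IGROV-1 were thus lowest or next to lowest of their batches for HOXB2, HOXB6 and HOXB9. HOXB2, HOXB6 and HOXB9 each lay at least 4-fold above the lowest line of the batch in 29 of 49 line and batch values.

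The 8 genes from HOXB2 to HOXB9 were averaged after the batch median was taken off. This mean was -2.17 in PA-1 in batch 1, -1.95 in IGROV-1, -1.57 in UWB1.289, -1.48 in CH1 and -1.46 in FU-OV-1, with OVCA420 between UWB1.289 and CH1. It was 1.46 in DOV13, 1.23 in RMG-I, 1.15 in OVCAR-10, 1.12 in RMG-II and 1.07 in A2780cisR, with A2780 next. Of 49 line and batch values, 10 lay below -1 and 6 above 1. In DOV13, 7 of the 8 genes were more than 1 log2 unit above the batch median, and in PA-1 7 of 8 were as far below it.

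HOXC10, a posterior gene known in hindlimb motor neurons, was high in a few of the replicated lines. Its untreated cultures read 9.24, 9.52 and 9.37 in A2780, and the means of the other 6 lines of batch 1 lay between 4.70 and 5.12. In batch 2 it was 8.50 in OV90, 7.40 in A2008 and 5.93 in FU-OV-1, with the rest between 4.77 and 5.12. In batch 3 it was 8.27 in OVCAR-10 and 7.71 in C13, with the rest between 4.68 and 5.10. HOXC10 was also high in single cultures of OVK-18 (8.37), TOV-112D (7.26) and RMG-II (7.25) in batch 5 and of SKOV-4 (7.33) and Caov-2 (6.98) in batch 4, where the 12 lines were spread between 3.06 and 7.33. HOXC11, its neighbour, had a mean of 8.39 in A2780, against 4.76 to 5.08 in the other lines of batch 1, and 6.98 in OV90, against 4.93 to 5.60 in the other lines of batch 2. HOXC9 had 7.90 in A2780, 6.55 in OVCA429 and at most 5.46 in the other lines of batch 1.

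The mean of HOXC8 to HOXC13 was 2.86 above the batch median in A2780, 2.06 in OVK-18, 1.56 in OV90 and 1.53 in OVCAR-10. All 6 genes were more than 1 log2 unit above the batch median in A2780 and in OV90. In A2008 and C13, HOXC10 stood 1.88 and 2.61 above the batch median and HOXC13 stood 1.27 and 2.22 above it. Of the 6 genes, only 2 in A2008 and 3 in C13 were more than 1 log2 unit above the batch median. The mean of HOXB2 to HOXB9 in these lines was -0.43 and -1.18. OVK-18 had HOXC10 and HOXC13 4.64 and 3.26 above the batch median, with HOXC11 at 0.65 and HOXC12 at 0.38. HOXC10 and HOXC13 of OVK-18 are therefore further from the batch median than the 2 genes that lie between them.

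HOXD10, known in hindlimb and lumbar patterning, had its highest untreated values in RMG-II (7.06), RMG-I (7.02), Caov-2 (6.78) and OVCAR-2 (6.18), each 1 culture, and in the replicated lines in A2008, with cultures at 7.23, 7.52 and 7.04. The other 5 lines of batch 2 had means between 4.67 and 5.20. HOXD11, its neighbour, was 6.18 in A2008, against at most 5.18 in the other lines of batch 2, and stood 1.72 above the batch median in OVCA432, 1.56 in Caov-2, 1.41 in RMG-II and 1.33 in OVCAR-2, with RMG-I between Caov-2 and RMG-II. In OVCA432, the highest line for HOXD11, HOXD10 stood 0.96 above the batch median and HOXD8 1.43 above it. HOXD8 instead was high in HeyC2 (7.05), HeyA8 (6.95), DOV13 (7.16) and OVCA432 (6.98), and DOV13B had its highest value in batch 3. HOXD13, the terminal gene of the cluster, known for digit formation, had an SD of 0.53 within batches 1 to 3, against 0.62 for HOXD10 and 0.37 for HOXD11, and 0.27 within batches 4 and 5, against 0.97 and 0.70. It had its highest replicated means in CH1 (7.64) and A2780 (7.47). The mean of all 9 HOXD genes stayed between -0.38 and 0.80 of the batch median.

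HOXA2, the hindbrain gene that stands for the HOXA cluster here, had an SD of 0.89 and a pattern unlike that of the HOXB genes. Its untreated mean was 7.63 in FU-OV-1, 7.58 in OVCAR-8 and 7.47 in OVCA420, against 5.22 in PA-1, 5.57 in DOV13 and 4.23 in OVCAR-10, the lowest of their batches. FU-OV-1 and OVCA420, which had low HOXB2, were high for HOXA2. OVCAR-8 was instead the highest line of batch 3 for both genes, and PA-1 was the lowest of batch 1 for both. Across 46 lines the correlation of HOXA2 with the other 26 members lay between -0.18 and 0.17, but the values differed between batches. Its r with HOXC9 was -0.52 within batches 1 to 3 and 0.45 within batches 4 and 5, and its r with HOXB13 was -0.27 and 0.45.

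**Figure D2:**
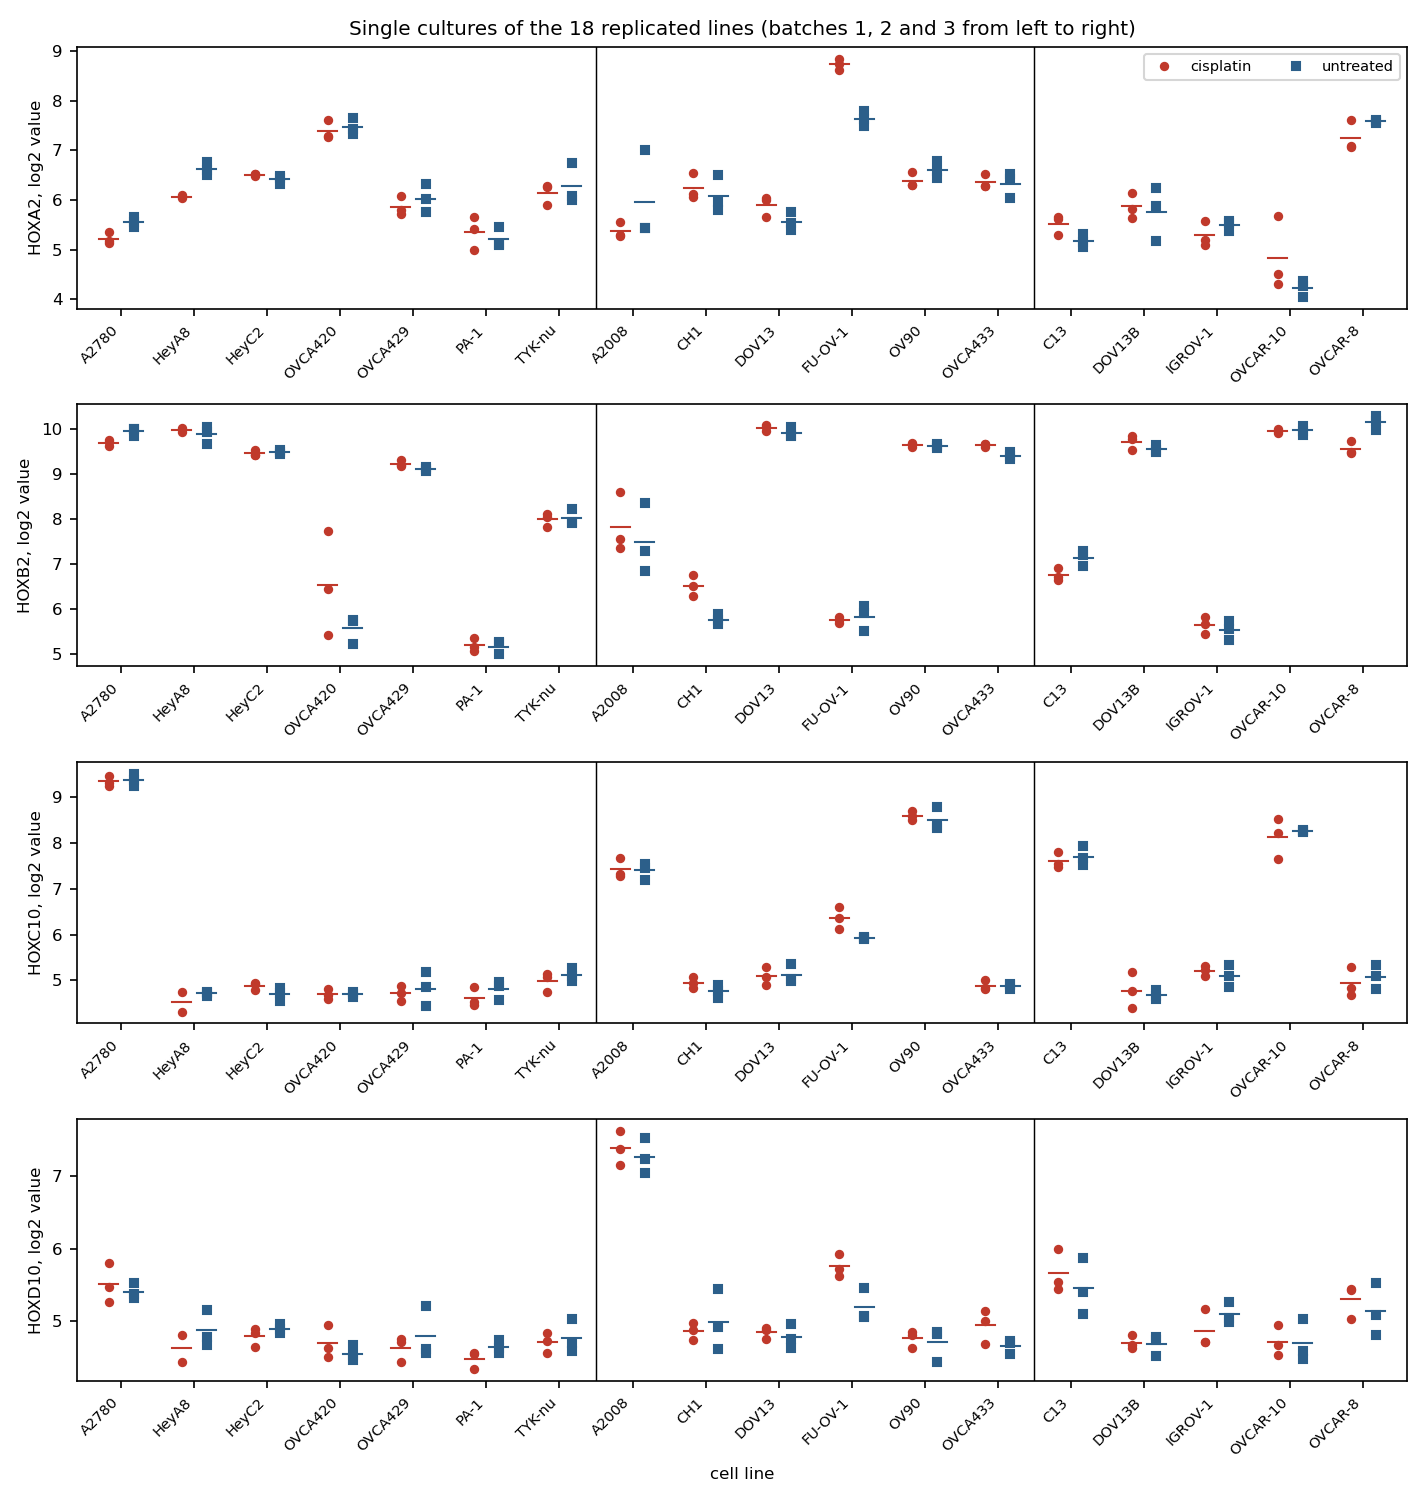
Log2 value of single cultures for HOXA2, HOXB2, HOXC10 and HOXD10 in the 18 replicated lines, with cisplatin (circles, left) and untreated (squares, right) cultures beside each other and a bar at each mean. Lines differ by several log2 units while the arms of a line mostly lie together; the treated cultures of OVCA420 spread between 5.42 and 7.73 for HOXB2, and the treated cultures of FU-OV-1 lie above the untreated ones for HOXA2.

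Genes of a cluster followed each other across lines. Pearson's r of the untreated values of 46 lines, with batch means removed, averaged 0.60 over 23 pairs of neighbouring members, 0.42 over 79 other pairs of a cluster, 0.13 over 17 pairs with the same number in different clusters and 0.06 over 232 remaining pairs. These correlations share arrays, batches and, for neighbours, possible shared transcripts, and are a description. Among HOXB2 to HOXB9 the 28 pairs averaged 0.75, from 0.55 to 0.88, with HOXB5 and HOXB6 the closest. HOXB1 and HOXB13 lay outside this block: HOXB13 had an r of 0.34 with HOXB9 and 0.08 with HOXB2. HOXB13, the far posterior gene of its cluster and a known prostate lineage factor, was closer to the posterior HOXC genes, with an r of 0.64 with HOXC13 and 0.54 with HOXC10. HOXC9 had an r of 0.61 with HOXB9.

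The 7 HOXC genes averaged 0.59 over 21 pairs and the 9 HOXD genes 0.30 over 36 pairs. HOXD10 and HOXD11 had the highest value of the HOXD pairs, 0.86, and their windows are those printed above. HOXD3 and HOXD4 reached 0.69 and HOXD8 and HOXD9 0.63, whereas HOXD9 and HOXD10, which are neighbours, had 0.10. Within batches 1 to 3 the neighbouring pairs averaged 0.68 and within batches 4 and 5 they averaged 0.52.

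**Figure D3:**
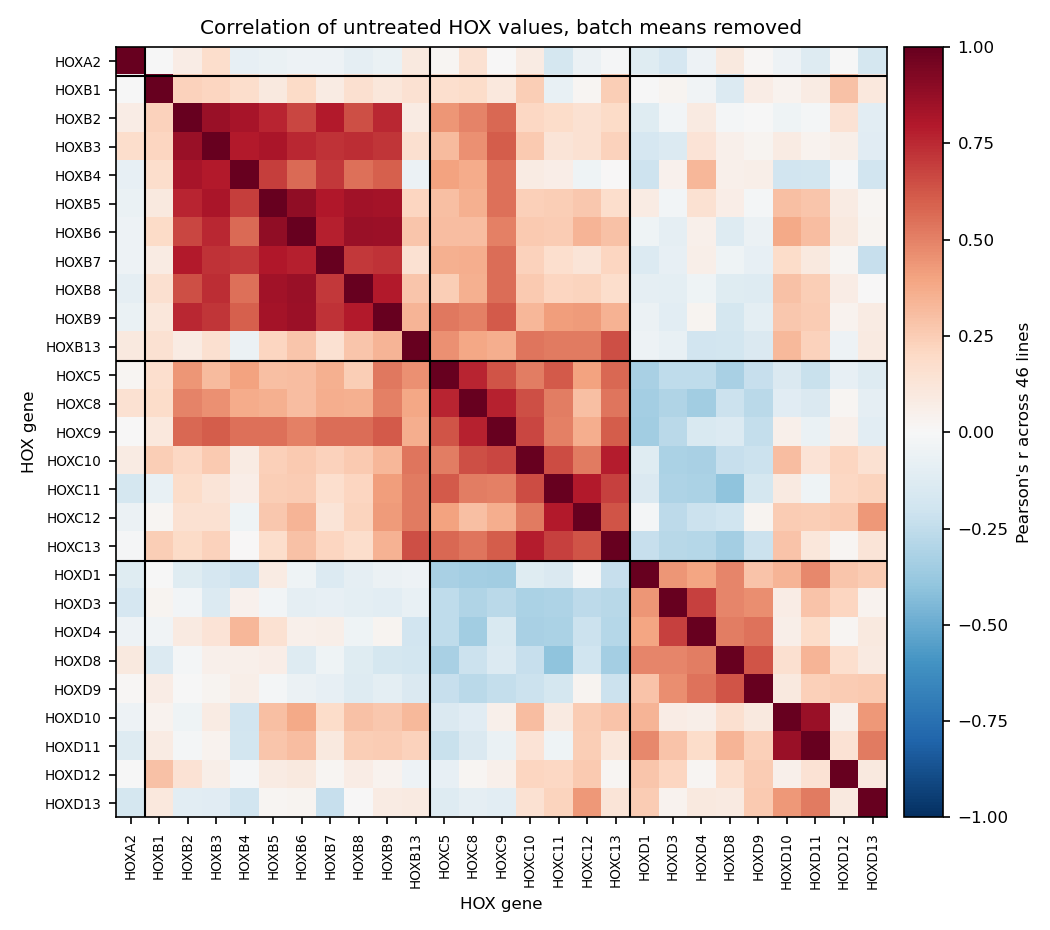
Pearson's r of untreated values across 46 lines for each pair of HOX genes in cluster order, with lines between clusters. HOXB2 to HOXB9 form a square with r between 0.55 and 0.88, HOXB13 is closer to HOXC13 (0.64) than to HOXB2 (0.08), and HOXD10 with HOXD11 (0.86) stands apart within HOXD.

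The profile over the 27 members was kept when a line was measured again. The centred profiles of PA-1, OVCA433 and SKOV-3 in 2 batches had r = 0.78, 0.71 and 0.92, and in each case the same line ranked first among the lines of the other batch. The median over 890 pairs of different lines in different batches was -0.05. C13 and A2008 had r = 0.71, DOV13B and DOV13 0.81, DOV13A and DOV13 0.75, and HeyC2 and HeyA8, which share a batch, 0.87. A2780cisR and A2780 had only 0.42: HOXB9 stood 1.61 and 3.01 above the batch median in them, and HOXC8 1.53 and 1.98, while HOXC11 stood at 0.15 and 3.40 and HOXC13 at 0.01 and 2.67. HOXC10 was below the batch median in A2780cisR and 4.57 above it in A2780. A2780cisR is 1 untreated culture of batch 4 and A2780 is 3 cultures of batch 1, so line and batch cannot be told apart in this difference, and it was not tested.

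PA-1 was compared with the 6 other lines of its batch. In untreated PA-1, 20 of 27 members were lower (26.6% of all genes were) and 1 was higher (26.8% of all genes were), and all 8 genes from HOXB2 to HOXB9 fell in the first group. With 1 line on one side, the p-values measure the spread between cultures and not between lines of a kind. HOXB2 read 4.99, 5.23 and 5.26 in PA-1, against a lowest of 5.22, a median of 9.30 and a highest of 10.04 over 18 cultures of the other lines. PA-1 overlapped OVCA420 only. The difference was -3.51 ± 0.18 (SE, limma adjusted p = 5.51e-30). HOXB6 read 4.43, 5.02 and 5.19 in PA-1, against 5.88, 8.12 and 8.99 as the lowest, median and highest of the others, with no overlap and a difference of -2.82 ± 0.14 (limma adjusted p = 2.65e-31). HOXB7, which is known to be raised in several carcinomas, read 4.91, 4.94 and 5.08 in PA-1, against 6.94, 7.72 and 8.21 in the others, again with no overlap (difference -2.69 ± 0.11, limma adjusted p = 1.11e-36). HOXB9 differed by -2.61 ± 0.13, HOXB3 by -1.67 ± 0.13, HOXB5 by -1.37 ± 0.11, HOXA2 by -1.17 ± 0.18 and HOXB4 by -1.10 ± 0.14, each with limma adjusted p of 2.69e-08 or less.

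The calls of HOXC10 to HOXC13 in that count rested on A2780. Without A2780, an alternative added after seeing the data, the difference of PA-1 was -0.00 for HOXC10 against -0.76 with it, -0.03 against -0.61 for HOXC11, 0.01 against -0.34 for HOXC12 and -0.06 against -0.50 for HOXC13, and none of the 4 passed. HOXD9 passed without A2780 (-0.24, limma adjusted p = 0.0327) and not with it (-0.21, limma adjusted p = 0.0759), so that 17 members were lower. HOXC5, HOXC8 and HOXC9 still passed at -0.63, -0.69 and -0.47. HOXB2 stood at -3.25 and HOXB9 at -2.02 without A2780. HOXD13 was the member that was higher in PA-1, by 0.26 ± 0.11 (limma adjusted p = 0.037). That call was lost under 5 of 10 alternatives, among them each set of numbered cultures left out, where the difference lay between 0.19 and 0.33. Without A2780 it was 0.41 and passed.

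Other cell markers moved with this comparison, in which 26.8% of all genes were higher in PA-1 and 26.6% lower. All 5 measured pluripotency markers were higher in PA-1, among them LIN28A by 6.56 and SOX2 by 5.77, and 9 of 11 epithelial markers were lower. The mean of the pluripotency markers was 4.38 above the batch median in PA-1, 3.28 in CH1 and 2.94 in A2780. Of these, PA-1 and CH1 had low HOXB2 to HOXB9 and A2780 had high ones. The part of these markers in the HOX difference was not tested. Of 17 genes of retinoic acid handling and CDX factors, 3 were higher in PA-1 and 8 lower. CYP26A1, which breaks down retinoic acid, was higher by 3.41, while CYP26B1, an enzyme of the same function, differed by -0.61, ALDH1A3, which makes retinoic acid, by -3.07 and DHRS3 by -2.28. Of 9 TALE cofactors, 6 were higher and 1 lower, with MEIS2 higher by 0.86.

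HeyC2 and HeyA8, related by name, differed in few HOX genes. In untreated HeyC2, 1 member was higher (11.1% of all genes) and 2 were lower (13.1% of all genes). HOXC5 read 4.95, 5.34 and 4.74 in HeyC2, against 4.30, 4.39 and 4.42 in HeyA8, without overlap (difference 0.64 ± 0.17, limma adjusted p = 0.0028). HOXD13 read 6.29, 6.63 and 6.85 in HeyC2, against 7.11, 7.27 and 7.36 in HeyA8, also without overlap (difference -0.66 ± 0.14, limma adjusted p = 0.000162). HOXB5, a mid-cluster gene, read 6.69, 6.92 and 6.89 in HeyC2, against 7.29, 7.26 and 7.68 in HeyA8 (difference -0.57 ± 0.14, limma adjusted p = 0.00109). The HOXC5 call was lost without the cultures numbered 2 and the HOXB5 call without those numbered 3.

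None of the HOX genes passed the threshold for a common change with cisplatin over the 46 lines. The question is whether 48 h of the drug moves them. In the limma test of 46 line differences, 0 of 27 members were higher, against 4.98% of all genes, and 0 were lower, against 4.72%. With 27 members, these counts of 0 lie near the shares of all genes. At an unadjusted p under 0.05 the count was also 0, but the share of all genes at that limit was not counted. The median change was 0.00 over the members and -0.01 over all genes, and the median absolute change was 0.05 in both. HOXB9 had the largest mean, 0.13 ± 0.08 (SE, n = 46 lines, limma adjusted p = 0.353), with line values from -1.18 in JHOS-3 through a median of 0.11 to 1.62 in JHOS-2 and 27 lines above 0. HOXB3 stood at -0.11 ± 0.07 (limma adjusted p = 0.354), with line values from -1.43 in SKOV-6 to 0.81 in A2780cisR. HOXB8 stood at -0.10 ± 0.06, HOXC13 at 0.08 ± 0.05 and HOXC5 at 0.07 ± 0.06. For each of these 5 genes, lines lay on both sides of 0, and the largest values came from lines with 1 culture per arm.

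**Figure D4:**
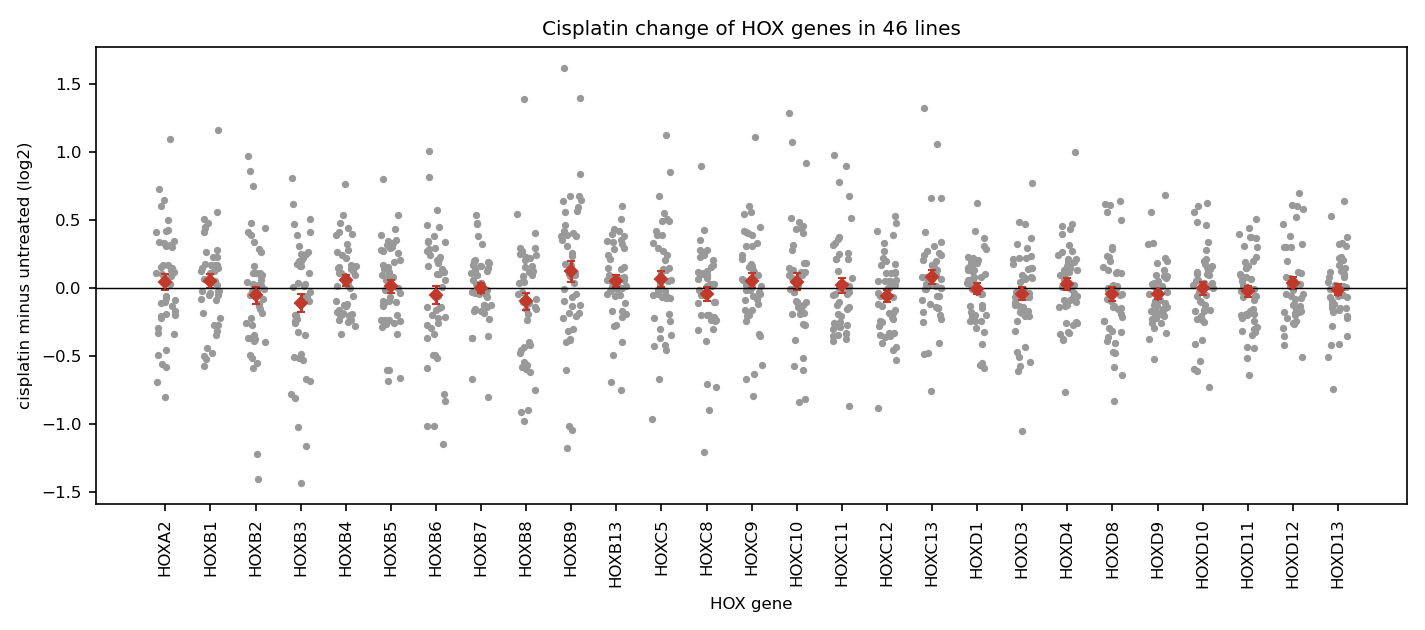
Cisplatin minus untreated (log2) of each HOX gene in 46 lines (grey points), with the mean and its standard error (diamonds). The means lie between -0.11 for HOXB3 and 0.13 for HOXB9, and single lines reach -1.43 and 1.62.

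The line pattern outlasted the drug. For each member, r between the untreated and the treated values of 46 lines had a median of 0.88, and 18 of 27 members (66.7%) were above 0.8, against a median of 0.64 and 27% for all genes. It was 0.97 for HOXC10 and 0.96 for HOXB2, and 0.17 for HOXD12 and 0.45 for HOXB1, which vary little between lines. The SD of the cisplatin change between lines had a median of 0.33 over the members and 0.35 over all genes. For HOXB2 this SD was 0.45 beside 1.99 between untreated lines, for HOXC10 0.42 beside 1.65 and for HOXB7 0.26 beside 1.25, where the first covers 46 lines and the second batches 1 to 3. Within batches 4 and 5 the SD between untreated lines was 1.15 for HOXB2, 1.70 for HOXC10 and 0.68 for HOXB7.

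**Figure D5:**
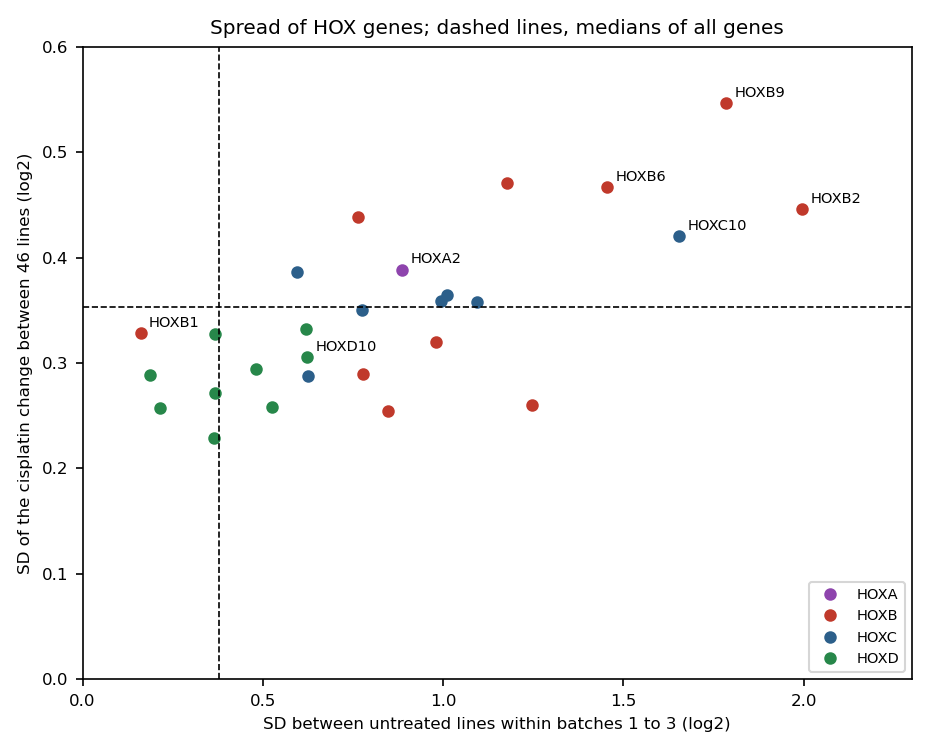
SD of the cisplatin change between 46 lines against the SD between untreated lines within batches 1 to 3 for each HOX gene (log2), coloured by cluster; dashed lines are the medians of all genes, 0.35 and 0.38. HOXB2, HOXB9, HOXB6 and HOXC10 lie far to the right, with line SDs between 1.45 and 1.99.

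Within the 18 replicated lines the change depended on the line. Of 486 pairs of member and line, 20 were higher with cisplatin (4.12%, against 4.55% of all pairs of gene and line) and 6 were lower (1.23%, against 3.68% of all pairs). The 26 pairs covered 16 members and 10 lines, and 23 of them had treated and untreated cultures that did not overlap. The pairs were called from these same values, and overlap was not counted for the called pairs of all genes. The 23 therefore add no support to the calls. The limma F test of differences between line responses called 10 members, against 51% of all genes: HOXA2, HOXB2, HOXB3, HOXB5, HOXB6, HOXB8, HOXB9, HOXB13, HOXC9 and HOXC13. These counts lean on single cultures. Without the cultures numbered 2 the 26 pairs became 7 and the 10 members became 1, and without those numbered 3 there were 15 pairs. Of the 26 pairs, 5 were called under each alternative tried: HOXA2, HOXB13, HOXC9 and HOXC13 in FU-OV-1 and HOXB5 in HeyA8.

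FU-OV-1 had the most HOX changes, with 7 of 27 members higher and 1 lower. In that line 27.8% of all genes changed, so the count of members was near the share of all genes. HOXC9 read 6.56, 6.66 and 6.56 in treated FU-OV-1, against 5.30, 5.59 and 5.56 in untreated FU-OV-1. The arms were well apart, and the change was 1.11 ± 0.18 (SE, limma adjusted p = 8.09e-07). HOXA2 read 8.61, 8.74 and 8.84 in treated cultures, against 7.79, 7.48 and 7.62 in untreated ones, a change of 1.10 ± 0.23 (limma adjusted p = 0.000103) in a line that already had the highest untreated value of its batch. HOXC13, the terminal HOXC gene, known in hair and nail formation, read 7.20, 7.47 and 7.25 in treated cultures, against 6.13, 6.29 and 6.30 in untreated ones, a change of 1.06 ± 0.13 (limma adjusted p = 4.48e-10). HOXB13, HOXC10, HOXC11 and HOXD10 rose there by 0.60, 0.43, 0.52 and 0.56, and HOXB3 fell by 0.48. Of these, HOXB3, HOXC10, HOXC11 and HOXD10 were no longer called without the cultures numbered 2. HOXB2, which is low in this line, differed by -0.08 (limma adjusted p = 0.873).

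HOXC13 also rose in C13. It read 8.43, 8.57 and 8.64 in treated C13, against 7.80, 7.94 and 7.92 in untreated C13, a change of 0.66 ± 0.13 (limma adjusted p = 0.000123). In PA-1 it fell by 0.48 and HOXC9 fell by 0.63 ± 0.18 (limma adjusted p = 0.00724). HOXC9 read 4.71, 4.19 and 4.21 in treated PA-1, against 5.14, 5.09 and 4.77 in untreated PA-1, near the low end of its range. Both PA-1 calls were lost without the cultures numbered 2, and that of HOXC13 also without those numbered 1. HOXC13 had the lowest adjusted p of the members in the F test between lines, 6.13e-08. HOXB13 rose in 4 lines, FU-OV-1, DOV13B, A2780 and HeyA8, by 0.60, 0.51, 0.44 and 0.42, but its calls outside FU-OV-1 were lost without the cultures numbered 2 or 3. HOXD genes made up the other single calls: HOXD8 rose by 0.56 in OVCAR-10, HOXD9 fell by 0.38 in C13 and HOXD4 fell by 0.37 in PA-1, and none of the 3 was called without the cultures numbered 2.

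In OVCA420, 4 of 27 members rose, all HOXB genes, in a line where 11.5% of all genes changed. The change of HOXB2 came largely from 1 culture. HOXB2 read 5.42, 6.44 and 7.73 in treated OVCA420, against 5.72, 5.22 and 5.75 in untreated OVCA420, so the arms overlapped. The change was 0.97 ± 0.23 (limma adjusted p = 0.00198), and without the treated culture 3 it was 0.37 and not called. HOXB6 read 6.84, 6.99 and 7.67 in treated cultures, against 6.58, 5.88 and 6.57 in untreated ones, a change of 0.82 ± 0.18 (limma adjusted p = 0.000557), and was still called at 0.57 without that treated culture, but not without all cultures numbered 2 or 3. HOXB3 rose in OVCA420 by 0.51 and HOXB5 by 0.43. Without the treated culture 3 they stood at 0.38 (limma adjusted p = 0.274) and 0.44 (limma adjusted p = 0.0699), so that HOXB5 kept its size and lost its call. HOXB5 in HeyA8 read 8.12 and 8.30 in treated cultures, against 7.29, 7.26 and 7.68 in untreated ones, a change of 0.80 ± 0.16 (limma adjusted p = 9.52e-05). HOXB3 in OVCAR-8 read 7.34, 7.55 and 7.48 in treated cultures, against 8.27, 8.15 and 8.0 in untreated ones, a change of -0.68 ± 0.18 (limma adjusted p = 0.00365), while HOXB5 and HOXB7 rose in that line by 0.54 and 0.47, calls that were lost without the cultures numbered 2 or 3. HOXB9 in A2008 read 7.68, 7.48 and 7.33 in treated cultures, against 6.52, 6.61 and 7.43 in untreated ones, a change of 0.64 ± 0.17 (limma adjusted p = 0.0138). Its arms overlapped through 1 untreated culture, and the call was lost without the cultures numbered 1 or 2. In OVCAR-8, genes of the HOXB2 to HOXB9 block thus changed in both directions.

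The wider HOX pathway was read from lists. Of 9 measured TALE cofactors, 0 rose and 3 fell over the 46 lines, against 4.98% and 4.72% of all genes. MEIS1, which binds DNA with HOX proteins, fell by 0.29 ± 0.08 (SE, n = 46 lines, limma adjusted p = 0.0112). MEIS2 fell by 0.28 ± 0.08 (limma adjusted p = 0.019) and PKNOX1 fell by 0.12 ± 0.04 (limma adjusted p = 0.0489). The median change of the list was -0.10, beside -0.01 for all genes. Of 18 Polycomb genes 0 rose and 0 fell, and PHF1 had the largest change, 0.18 ± 0.07 (limma adjusted p = 0.0928). Of 14 Trithorax genes and demethylases 1 rose, KDM6B, which removes the Polycomb mark, by 0.20 ± 0.05 (limma adjusted p = 0.00927). Of 17 genes of retinoic acid handling and CDX factors, 1 rose, CRABP2, which carries retinoic acid to the nucleus, by 0.31 ± 0.09 (limma adjusted p = 0.02), and 1 fell, the receptor RXRA, by 0.18 ± 0.05 (limma adjusted p = 0.0233). Of 16 cluster RNAs and genes that flank the clusters, 0 rose and 0 fell, and SNX10 had the largest value, -0.18 ± 0.07 (limma adjusted p = 0.107).

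The genes other than HOX genes whose untreated pattern was most like that of a leading member were ranked by r over 46 lines. For HOXB2 they were MIR10A (0.73, with the sequence given above), EMP1 (0.72) and RUSC2 (0.61). MIR10A lies inside the HOXB cluster, within the annotated span of HOXB3, and had a low mean of 2.93 over all arrays. Whether its probe set also reads HOXB3 transcripts was not tested. MIR196A1, which lies between HOXB9 and HOXB13, had an r of 0.52 with HOXB2. Within batches 1 to 3, r with HOXB2 was 0.89 for MIR10A and for EMP1 and 0.61 for RUSC2, and within batches 4 and 5 it was 0.39, 0.38 and 0.63. For HOXC10 they were FUNDC1 (0.67), SLC25A35 (0.67) and PIGP (0.66). For HOXD10 they were RBP4 (0.75), SLC28A2 (0.71) and CDH17 (0.65), the last with an r of -0.25 within batches 1 to 3. For HOXA2 they were RPL22 (0.61), VMP1 (0.54) and EPCIP (0.54). HOXA2 and RPL22 had 0.15 within batches 1 to 3 and 0.75 within batches 4 and 5.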

How the data were processed

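The authors deposited 1 table of log2 values of 33297 probe sets on 171 arrays, and the submitters' processing notes name RMA; its version and the genome build of the annotation are not given in the sources used here. The 19460 probe sets with 1 symbol gave 18417 genes, with the brightest probe set kept where a gene had several, and 19429 were matched by gene identifier to RefSeq (GRCh38.p14). Repeat arrays were averaged. In R 4.3.3 with limma 3.58.1, a group-means model of 107 cultures (36 groups, 71 residual degrees of freedom) gave the F tests, the contrasts between lines and the changes within lines. For cisplatin over all lines, 1 treated minus untreated difference per line, taken within a batch, was tested against 0. All genes were tested together with Benjamini-Hochberg adjustment at 0.05, within a line for its own contrast. The steps were tested on simulated data. The HOX genes, the lists and the tests were chosen with earlier results of these data known. Named were the 3 genes of a cluster with the largest untreated SD, up to 8 called per line contrast, the 5 largest mean cisplatin changes, the 10 largest called changes within lines, 3 like genes per leading member and up to 3 of each other list (1 where none passed); other genes were named after their values were seen. Of 53 pairs of treated and untreated cultures with the same number, 7 had correlated deviations above 0.1 (median r = -0.03), so the numbers were not taken as pairs. Alternatives changed the probe set, scaling, filter, variance estimate, minimum change, cultures, lines and batches. Each member had 1 probe set, so the alternative that averaged probe sets could not change the values of the members.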

Additional observations from a re-analysis of the deposited data

Results flagged for a closer look

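Among the named members, 30 groups of untreated lines (10 genes in each of batches 1 to 3) were examined for a line whose gap to the nearest other line was large for the range of the batch, and 5 stood out. Chance flags about 1 in 20 groups of values that were not selected, but these genes were chosen for their large SD between the same lines, so that rate gives no comparison for the 5. HOXC10 and HOXC11 of A2780 stood at 9.38 and 8.39 in batch 1, with the next lines at 5.12 and 5.08. HOXC11 of OV90 stood at 6.98 in batch 2, with the next line at 5.60. HOXD10 of A2780 stood at 5.41 in batch 1, with the next line at 4.90, a small difference in a narrow range. HOXD10 of A2008 stood at 7.26 in batch 2, with the next line at 5.20.

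For 10 members the cisplatin change differed between the 18 replicated lines in the limma F test, which is 37% of the members against 51% of all genes, and 1 member was called without the cultures numbered 2. The adjusted p was 6.13e-08 for HOXC13, 2.69e-05 for HOXB5, 0.000122 for HOXB13, 0.000466 for HOXC9, 0.00104 for HOXB3, 0.00169 for HOXA2, 0.00776 for HOXB9, 0.0137 for HOXB6, 0.0141 for HOXB2 and 0.0431 for HOXB8. HOXB8 had no line of its own past the threshold.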

How the results depend on the processing

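The count of members changed by cisplatin over all lines was 0 under all 59 alternatives, which include leaving out each line. The F test of untreated lines called 19 to 25 members and the PA-1 comparison 17 to 21 under their alternatives. The mean r of neighbouring members lay between 0.52 and 0.68. HeyC2 and HeyA8 differed in 3 members, in 1 with a minimum change of 1.2-fold and in 5 when 2 treated cultures that stand apart (OVCA420 number 3, OVCAR-10 number 1) were left out, which alters the spread shared by the model. The 26 changes within lines became 5 with a minimum change of 1.2-fold and ranged from 7 to 27 when 1 numbered set of cultures was left out; the 10 members whose change differed between lines ranged from 1 to 9. These settings use fewer cultures or a stricter test by construction; the cause was not tested further. With a replicate block, which pairs cultures by number, the counts were 25 between untreated lines, 21 for PA-1, 3 for HeyC2 and HeyA8, 26 within lines, 9 between line responses and 0 over all lines, so no call count moved by more than 1; the numbers did not pair the cultures. RMA values carry no detection call, so differences among the lowest values are the least certain, and lines with 1 culture per arm have no replicate check.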

Other observations

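The probe set shared by HOXC6 and HOXC4, left out above because it carries both symbols, followed the other HOXC genes across untreated lines. Its value was 8.24 in A2780, the highest of batch 1, 6.83 in OV90, the highest of batch 2, 7.58 in OVCAR-10, the highest of batch 3, and 8.51 in OVK-18, the highest of batch 5. Across 46 lines its r was 0.82 with HOXC9, 0.76 with HOXC8, 0.73 with HOXC10 and 0.33 with HOXC12. In A2780cisR it stood 0.37 below the batch median, whereas HOXC8 stood 1.53 above it.

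Lines that share a name differed in how far their HOX profiles matched. Hey in batch 5 had r = 0.63 with HeyC2 and 0.56 with HeyA8 over the 27 members, and DOV13A had r = 0.73 with DOV13B. The cisplatin changes of neighbouring members were less alike than their levels, with a mean r of 0.19 over 23 pairs against 0.60 for the untreated values.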
